A study of Rattus norvegicus with 6 samples.

Results

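The enzymes that make, use and recycle α-ketoglutarate (α-KG) were examined as carriers of trimethylated lysine 27 of histone H3 (H3K27me3) in primary cardiomyocytes of newborn Sprague Dawley rats. The set comprised 44 symbols for enzymes of the tricarboxylic acid (TCA) cycle and of pyruvate, glutamate and α-KG metabolism, together with the α-KG receptor gene Oxgr1. They were chosen by name and matched to the symbols of the genes that the authors listed with an H3K27me3 peak, upper and lower case ignored. Of the 44 symbols, Fh and Fh1 are names of the same gene, which leaves 43 genes. Entries were found for 40 of them, out of 22427 listed genes in all, and each of the 40 had 1 Ensembl ID. Of the listed genes, 5089 had no symbol and could not be matched, so a gene described here as having no entry may be among them.

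In 2 libraries the cells had received 5 mM α-KG for 24 h, and in the other 2 phosphate-buffered saline (control) for the same time, in medium with 10% serum. These are called α-KG 1, α-KG 2, control 1 and control 2. No genetic change is given for any group. Both treatment arms also have an input sample, labelled IgG for its antibody, and neither is analysed here. The labels do not say that replicates came from separate cultures, so the spread between libraries may be technical.

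H3K27me3 is placed by the Polycomb repressive complex PRC2 and is characteristic of silenced developmental genes. It is removed by the demethylases Kdm6a and Kdm6b, which consume α-KG and oxygen and release succinate. In the TCA cycle, acetyl-CoA and oxaloacetate are condensed to citrate, isocitrate is oxidised to α-KG, and α-KG is oxidised to succinyl-CoA, then succinate, fumarate, malate and oxaloacetate. Glutamate feeds the cycle at α-KG through glutamate dehydrogenase and the aminotransferases. Succinate and fumarate inhibit dioxygenases that use α-KG, and the working heart depends on this cycle for most of its ATP.

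For each library the authors deposited the names of genes with a peak, without position, height, score or read count. A gene is therefore listed or not listed in a library, a listing does not show that the gene was silent, and an unlisted gene may have carried too little signal to be called. Depth is unknown for all 4 libraries. The α-KG libraries listed 18120 and 19181 genes and the control libraries 17245 and 18442, a difference in means of 807 genes (exact two-sided permutation test, p = 0.667, where 2 against 2 libraries cannot give less than 0.333). Of the 22427 genes listed in any library, α-KG 1, α-KG 2, control 1 and control 2 listed 80.8%, 85.5%, 76.9% and 82.2%. These shares are the background for the counts per library given below for each group of enzymes. Cell identity cannot be read from these lists. For the record, α-KG 1, α-KG 2, control 1 and control 2 each listed 6 of the 8 cardiomyocyte markers that had an entry, with Tnnt2, Actc1, Actn2, Nkx2-5 and Gata4 in every library and Myh6 in none. The equal totals came from different genes, since Tnni3 was in α-KG 1 alone, Myh7 in α-KG 2 alone, and Ryr2 in both controls without either α-KG library. Those libraries, in that order, had 4, 5, 5 and 5 of 5 fibroblast markers and 3, 4, 3 and 4 of 4 endothelial markers. They had 1, 2, 1 and 2 of 2 smooth muscle and pericyte markers, and 2 of 2 immune markers each. These totals also cover only markers with an entry. Like Myh6, the fibroblast marker Col1a2, the smooth muscle marker Acta2 and the immune marker Cd68 had no entry.

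Most TCA and α-KG enzyme genes carried a called H3K27me3 peak whatever the treatment. Of the 40 genes with an entry, 25 (62.5%) were listed in all 4 libraries, beside 62.8% of all listed genes and 63.1% of listed genes with a symbol. The share for the enzymes was thus close to that of genes in general. A further 5 were in 3 libraries, 4 in 2 and 6 in 1. Acly alone had the pattern of α-KG 1 and α-KG 2 without either control, and no member had the reverse.

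**Figure D1:**
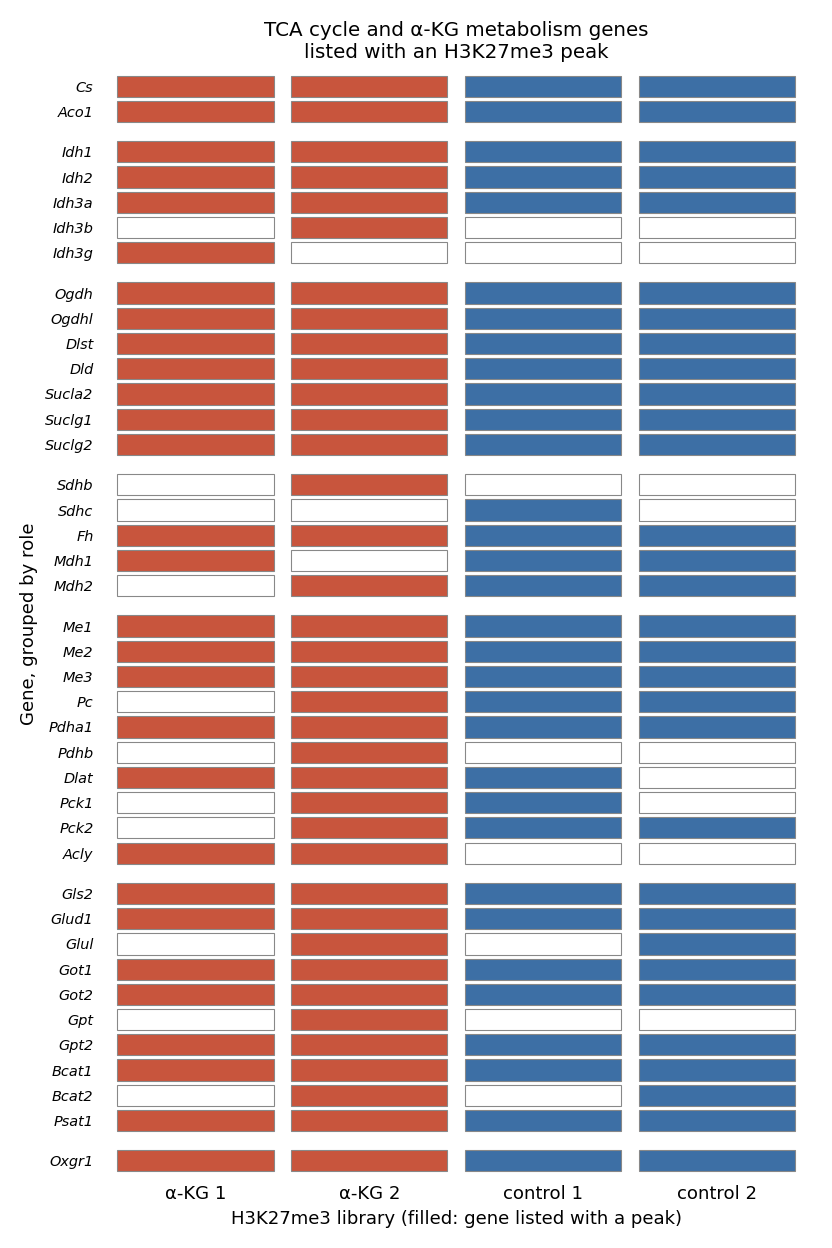
Listing of the 40 TCA cycle and α-KG metabolism genes, down the page by role, in the 2 α-KG libraries (red) and the 2 control libraries (blue). A filled cell means that the library lists the gene with an H3K27me3 peak. The 25 rows filled throughout include every α-KG dehydrogenase and succinyl-CoA ligase gene of the set, and α-KG 1 has the most empty cells, 11 of 40.

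Citrate formation and the oxidation of isocitrate had mostly constant listings. Cs (citrate synthase) and Aco1 (the cytosolic aconitase, which also serves as an iron-responsive RNA-binding protein) were in α-KG 1, α-KG 2, control 1 and control 2. So were Idh1 and Idh2, the cytosolic and mitochondrial NADP-dependent isocitrate dehydrogenases, and Idh3a, the catalytic subunit of the NAD-dependent enzyme of the cycle. The other subunits of that enzyme differed from Idh3a. Idh3b was in α-KG 2 and in no other library, and Idh3g, a regulatory subunit, was in α-KG 1 and in no other library. The 3 Idh3 genes therefore gave 2 listings in each α-KG library (Idh3a with Idh3g in α-KG 1, and with Idh3b in α-KG 2) and 1 listing, Idh3a, in each control library.

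Members at the step of the cycle that consumes α-KG, and at the next step, were evenly listed. All 7 member genes for the α-KG dehydrogenase complex and succinyl-CoA ligase were in all 4 libraries, beside 62.8% of all listed genes. Ogdh encodes the E1 component that decarboxylates α-KG, and Ogdhl encodes an E1-like paralog. Dlst is the E2 component, and Dld is the E3 component shared with pyruvate dehydrogenase. Sucla2 and Suclg2 are the ADP-forming and GDP-forming β subunits of succinyl-CoA ligase, and Suclg1 is their common α subunit. No gene in this group differed between any pair of libraries.

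Succinate dehydrogenase, which is complex II of the respiratory chain, had few listings. Of its 4 subunit genes 2 had an entry, and neither was in all 4 libraries, beside 62.8% of all listed genes. Sdhb, the iron-sulfur subunit, was in α-KG 2 alone. Sdhc, a membrane anchor, was in control 1 alone. Sdha, the flavoprotein, and Sdhd, the other membrane anchor, had no entry and may be among the listed genes without a symbol. The complex thus gave 0 and 1 listings in the α-KG libraries and 1 and 0 in the control libraries. Fh (fumarate hydratase) was in all 4. The malate dehydrogenases were each absent from 1 α-KG library, with Mdh1 (cytosolic) in α-KG 1, control 1 and control 2 and Mdh2 (mitochondrial) in α-KG 2, control 1 and control 2. From succinate to oxaloacetate the α-KG libraries listed 2 and 3 of 5 genes and the control libraries 4 and 3. The promoter of Sdhd is shown here as that of a member rich in CG (24 CG, in capitals) with no entry. The lists hold no positions, so whether a peak lay in this window is unknown. Its neighbour Timm8b was listed in α-KG 2 alone. The window runs from 250 bases before to 50 after the annotated start (RefSeq, GRCr8, minus strand, chr8:59850592-59850891).
Sdhd: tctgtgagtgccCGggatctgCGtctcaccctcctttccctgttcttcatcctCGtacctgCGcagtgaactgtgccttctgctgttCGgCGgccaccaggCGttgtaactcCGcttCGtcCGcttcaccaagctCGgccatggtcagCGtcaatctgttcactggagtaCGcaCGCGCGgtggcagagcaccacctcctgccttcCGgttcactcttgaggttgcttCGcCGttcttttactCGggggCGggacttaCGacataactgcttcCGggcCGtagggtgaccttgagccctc

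Among enzymes that join pyruvate, malate and citrate to the cycle, α-KG 2 listed every gene and the other libraries fewer. Of 10 genes, α-KG 1 listed 6, α-KG 2 listed 10, control 1 listed 8 and control 2 listed 6. The malic enzymes Me1 (cytosolic, NADP), Me2 (mitochondrial, NAD) and Me3 (mitochondrial, NADP), which turn malate into pyruvate, were in all 4 libraries. The pyruvate dehydrogenase complex was uneven. Pdha1, its E1α subunit, was in all 4, Dlat, its E2 component, was in α-KG 1, α-KG 2 and control 1, and Pdhb, its E1β subunit, was in α-KG 2 alone. Pc (pyruvate carboxylase, which makes oxaloacetate) and Pck2 (the mitochondrial phosphoenolpyruvate carboxykinase) were in α-KG 2, control 1 and control 2. Pck1, the cytosolic carboxykinase of gluconeogenesis, was in α-KG 2 and control 1.

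Me1 and Me3 are shown together because the same listing in all 4 libraries went with promoters of opposite base composition. Me1 had 52 CG in 300 bases (GRCr8, minus strand, chr8:96540195-96540494) and Me3 had 5 (plus strand, chr1:152946378-152946677). Pck1 had 8 CG and the mixed listing given above (plus strand, chr3:182348322-182348621). CG is in capitals.
Me1: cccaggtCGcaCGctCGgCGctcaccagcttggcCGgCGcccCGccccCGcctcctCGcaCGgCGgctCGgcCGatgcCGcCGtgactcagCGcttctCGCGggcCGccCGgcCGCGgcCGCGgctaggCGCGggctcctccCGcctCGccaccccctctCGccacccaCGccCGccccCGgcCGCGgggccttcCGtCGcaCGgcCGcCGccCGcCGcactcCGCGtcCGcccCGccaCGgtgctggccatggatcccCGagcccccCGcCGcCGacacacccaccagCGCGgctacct
Me3: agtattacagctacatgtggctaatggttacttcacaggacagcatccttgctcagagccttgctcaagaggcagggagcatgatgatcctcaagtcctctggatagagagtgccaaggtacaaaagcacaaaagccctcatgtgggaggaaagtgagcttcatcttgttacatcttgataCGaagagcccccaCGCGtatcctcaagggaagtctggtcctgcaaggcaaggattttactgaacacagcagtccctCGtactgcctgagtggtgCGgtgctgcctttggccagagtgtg
Pck1: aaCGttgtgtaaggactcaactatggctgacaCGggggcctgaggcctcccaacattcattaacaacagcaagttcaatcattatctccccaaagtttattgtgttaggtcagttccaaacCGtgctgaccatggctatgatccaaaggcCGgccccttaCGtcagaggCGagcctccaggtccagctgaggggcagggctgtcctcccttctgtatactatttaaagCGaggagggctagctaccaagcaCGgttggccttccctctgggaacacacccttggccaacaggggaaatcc

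Acly was the 1 gene whose listing divided by treatment. It encodes ATP citrate lyase, which splits exported citrate into acetyl-CoA and oxaloacetate in the cytosol and nucleus and so supplies histone acetylation and lipid synthesis. Acly was listed in α-KG 1 and α-KG 2 and in neither control 1 nor control 2. It was 1 of the 27 member genes in both α-KG libraries, beside 4.48% of all genes in both α-KG libraries that showed this pattern. Of the 29 member genes in both control libraries, 0 were lost, that is, absent from both α-KG libraries, beside 3.22% of all genes in both control libraries. Counts of 1 and 0 are near what these background shares give for sets of this size. In the gene order of GRCr8, the neighbours of Acly are Klhl11, listed in α-KG 2 alone, and Odad4, listed in all 4 libraries, so neither had the listing of Acly. The Acly promoter held 20 CG, in capitals (GRCr8, minus strand, chr10:85963582-85963881).
Acly: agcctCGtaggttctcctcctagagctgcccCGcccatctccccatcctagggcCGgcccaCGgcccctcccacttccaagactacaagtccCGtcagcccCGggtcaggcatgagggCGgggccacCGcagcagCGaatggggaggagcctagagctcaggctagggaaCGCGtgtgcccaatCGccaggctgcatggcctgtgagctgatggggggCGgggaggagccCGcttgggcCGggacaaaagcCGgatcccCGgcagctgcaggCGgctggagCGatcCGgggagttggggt

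Genes of glutamate metabolism and transamination were in every library or missing from at least α-KG 1 and control 1. Of 10 genes, α-KG 1 listed 7, α-KG 2 listed 10, control 1 listed 7 and control 2 listed 9. Gls2 (the liver-type glutaminase), Glud1 (glutamate dehydrogenase, which makes α-KG from glutamate), the aspartate aminotransferases Got1 (cytosolic) and Got2 (mitochondrial), and Psat1 (phosphoserine aminotransferase of serine synthesis, which yields α-KG) were in all 4. The paralogs of alanine and branched-chain aminotransferase were unequal. Gpt2, the mitochondrial alanine aminotransferase, was in all 4, and Gpt, the cytosolic one, was in α-KG 2 alone. Bcat1, the cytosolic branched-chain aminotransferase, was in all 4, and Bcat2, the mitochondrial one, was in α-KG 2 and control 2. Glul (glutamine synthetase) was also in α-KG 2 and control 2. Oxgr1, a G protein-coupled receptor for extracellular α-KG, was in all 4. D2hgdh, whose enzyme returns D-2-hydroxyglutarate to α-KG, had no entry.

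Mitochondrial and cytosolic enzymes were counted apart. Of the 27 mitochondrial enzymes with an entry, α-KG 1 listed 19, α-KG 2 listed 25, control 1 listed 22 and control 2 listed 21. Of the 11 cytosolic enzymes the same libraries listed 8, 10, 8 and 8. In all 4 libraries were 17 mitochondrial (63.0%) and 6 cytosolic (54.5%) genes. Fh, whose product works in both places, and the receptor gene Oxgr1 were left out of this count.

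Across the whole set, the α-KG libraries differed from each other by more than the treatments did, and the controls by less. The α-KG libraries listed 29 and 37 of the 40 genes (33.0 ± 5.66, SD, n = 2) and the control libraries 32 and 31 (31.5 ± 0.707, SD, n = 2). The difference in means of 1.5 genes is smaller than the gap of 8 genes between α-KG 1 and α-KG 2 and larger than the gap of 1 between the controls, and the groups overlap, since both controls lie between the α-KG libraries. As a share of all genes listed by the library, the set made up 0.160% and 0.193% in α-KG 1 and α-KG 2 and 0.186% and 0.168% in control 1 and control 2. Without α-KG 2 the difference was -2.5 genes. Members with more α-KG than control listings numbered 7 (17.5%), beside 18.8% of all listed genes, and those with more control than α-KG listings numbered 5 (12.5%), beside 12.6%. Both shares are near those of genes in general.

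The 15 genes that were not in all 4 libraries separated by library. Of these 15, α-KG 1 listed 4, α-KG 2 listed 12, control 1 listed 7 and control 2 listed 6. Over all 8350 listed genes not in all 4 libraries, the same libraries listed 48.4%, 61.1%, 37.9% and 52.3%. α-KG 2 was thus the fullest library for the enzymes and for genes in general, whereas α-KG 1 was the emptiest for the enzymes and lay between the controls for genes in general. Idh3b, Sdhb, Pdhb and Gpt were in α-KG 2 alone, 4 of 40 genes (10.0%), beside 6.96% of all listed genes. Idh3g was in α-KG 1 alone and Sdhc in control 1 alone. The part of library depth in these patterns was not tested, since depth is unknown.

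**Figure D2:**
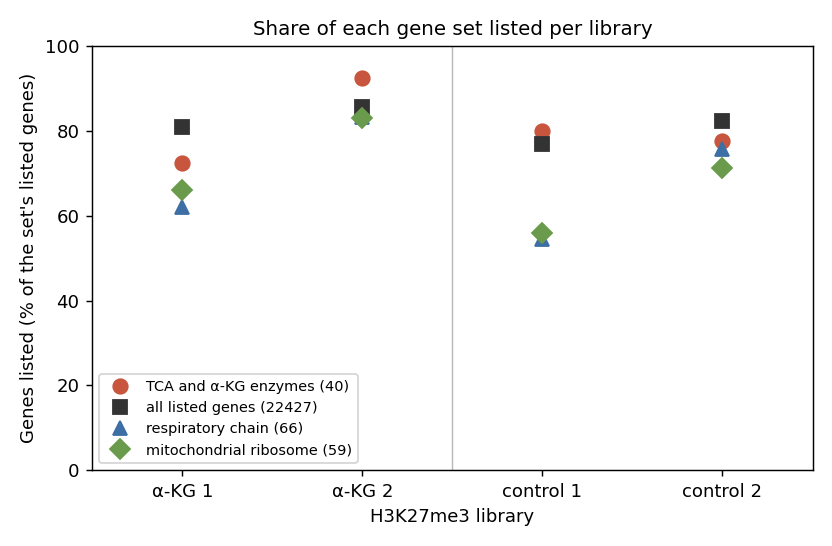
Share of each gene set listed in each library, as a percentage of the set's genes with an entry in any library; each point is 1 library and 1 set. The TCA and α-KG enzymes lie at 72.5% and 92.5% in the α-KG libraries and at 80.0% and 77.5% in the controls, and the respiratory chain and mitochondrial ribosome sets lie lower in each library.

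Other mitochondrial gene families are set beside the enzymes as a description, without a test. Of 66 listed genes with symbols of respiratory complexes I, III and IV or of ATP synthase, 27 (40.9%) were in all 4 libraries, and of 59 mitochondrial ribosomal protein genes 24 (40.7%), beside 62.5% of the enzymes. In α-KG 1, α-KG 2, control 1 and control 2 the respiratory genes had 41, 55, 36 and 50 listings and the ribosomal genes 39, 49, 33 and 42. Both families, like the enzymes, were listed most fully in α-KG 2. They were least full in control 1, whereas the enzymes were least full in α-KG 1. The 2 subunits of succinate dehydrogenase with an entry, which belong to the cycle and to the respiratory chain, had 1 listing each.

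**Figure D3:**
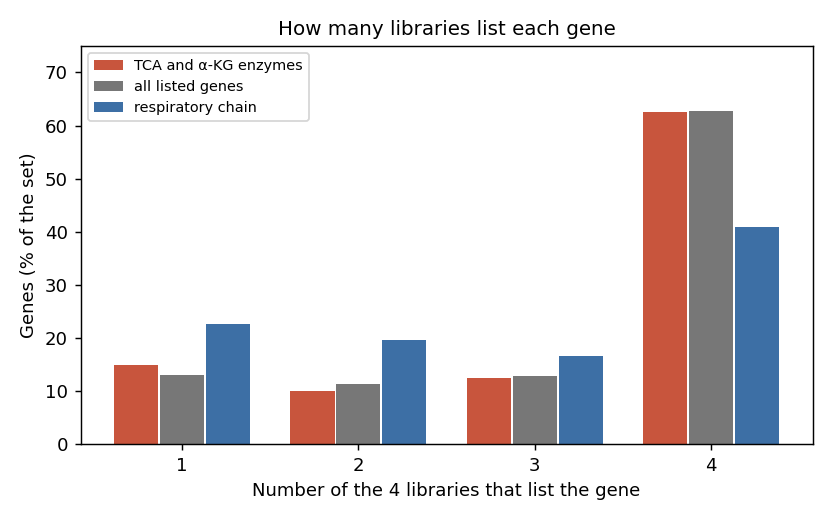
Percentage of each gene set listed in 1, 2, 3 or 4 libraries, for the 40 TCA and α-KG enzyme genes, all 22427 listed genes and 66 respiratory chain and ATP synthase genes. The enzymes (62.5% in all 4) follow the bars of all genes (62.8%), and the respiratory genes have fewer in all 4 (40.9%).

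The CG content of member promoters varied widely, and its range overlapped between members with and without an entry. A promoter of 300 bases, from RefSeq (GRCr8), was matched for 39 of the 44 symbols, 3 of which had several annotated starts, and the first in the table was used. Bcat1, Gls2 and Glul are these 3, so another start could give other values for them. The count of CG relative to that expected from the C and G content had a median of 0.80 (0.26 to 1.13) over 23 members listed in all 4 libraries, 0.67 (0.38 to 1.07) over 13 members listed in 1 to 3, and 0.77 (0.50 to 0.90) over the 3 members with no entry. Over all 19005 protein-coding genes with a promoter, the medians were 0.72, 0.56 and 0.28. Sdha, Sdhd and D2hgdh, which had no entry, lay at 0.77, 0.90 and 0.50, above the median of genes with no matched entry in general. Me3 (0.26) and Bcat1 (0.39) were the members in all 4 libraries with the lowest values. Genes with no matched entry include those whose symbols could not be matched between the lists and RefSeq. The 3 members may likewise be among the listed genes without a symbol.

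**Figure D4:**
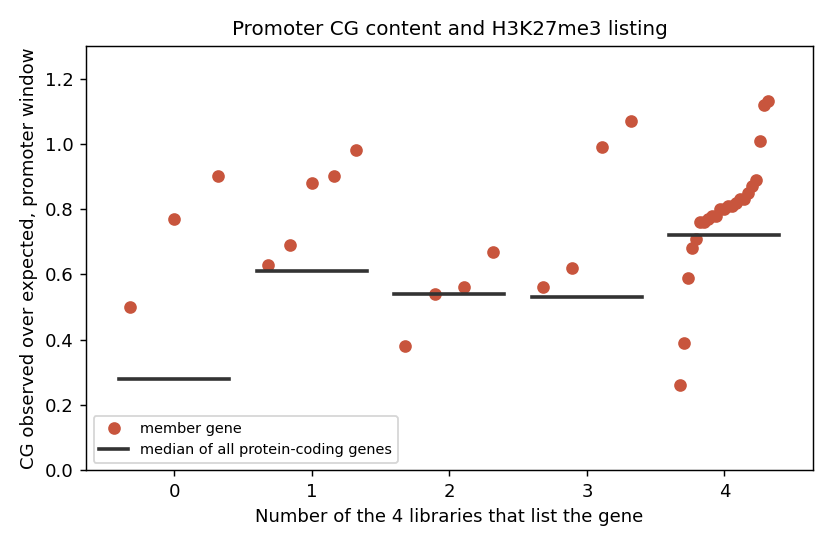
Ratio of observed to expected CG in the promoter window (vertical axis) against the number of libraries that list the gene, with 1 point per member gene (39 genes, spread sideways in order of value) and a bar at the median of all protein-coding genes in the same column. The 3 members with no entry lie above their bar (0.28), and listed members overlap across the columns.

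Short motifs were counted in the same windows on both strands. GGGCGG, bound by Sp1 and related factors, was in 26 of 39 member promoters (66.7%) and in 43.1% of all promoters. Most members were listed, whereas all promoters include those of genes with no matched entry, of which 22.4% had GGGCGG. Among genes in all 4 libraries the motif was in 73.9% of member promoters and 58.1% of all. Among genes in 1 to 3 libraries it was in 53.8% and 42.6%. CCAAT, bound by NF-Y, was in 18 (46.2%) and in 38.4% of all. TCAAGGTCA, bound by estrogen-related receptors, which are known to drive oxidative metabolism genes in heart, was in 1 member promoter, that of Sdhd, and in 0.353% of all. At least 1 CG was in all 39 and in 95.2% of all. The letters of GGGCGG contain CG, so these counts are not independent.

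Neighbouring genes rarely had the listing of members that varied, and this was also rare for varying genes in general. In the order of protein-coding genes on GRCr8, the 15 members in 1 to 3 libraries have 30 neighbours, of which 1 had the same libraries (3.33%), beside 5.27% over all genes in 1 to 3 libraries. That pair was Gpt and Mfsd3, both in α-KG 2 alone. Of the same 30 neighbours, 16 were in all 4 libraries (53.3%), beside 42.1% for all genes in 1 to 3 libraries. Members in all 4 libraries had 28 of 50 neighbours in all 4 (56.0%), beside 55.4% for all such genes. Sdha lies between Ccdc127 and Pdcd6, both in α-KG 2 alone, and Sdhd between Tex12, in all 4, and Timm8b, in α-KG 2 alone. Gene order can differ between GRCr8 and rn6, the build named in the submitters' processing notes.

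Other genes of the pathway were taken from 6 lists and matched by current or older symbol. Over all listed genes, 62.8% were in all 4 libraries and 6.96% in α-KG 2 alone, which is the background for each of these lists. Genes that control pyruvate dehydrogenase had 5 of 10 entries in all 4 libraries, among them the kinase genes Pdk1, Pdk3 and Pdk4. Of this list 0 of 6 were lost and 0 of 6 gained. Pdk2, the phosphatase gene Pdp2 and the pyruvate carrier gene Mpc2 were in α-KG 2 alone. Genes for cofactors and assembly had 4 of 7 entries in all 4 (57.1%), with 0 of 5 lost and 1 of 5 gained. The gained gene was Lias, which makes the lipoyl cofactor that Dlst and Dlat carry. Sdhaf1, an assembly factor of succinate dehydrogenase, was in α-KG 2 alone. Mrps36 was in α-KG 2, control 1 and control 2. Lipt1 and Sdhaf4 had no entry.

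Other enzymes of glutamate and α-KG had 8 of 16 entries in all 4 libraries. Tat (tyrosine aminotransferase) and Got1l1 (a paralog of Got1) were gained, 2 of 11, beside 4.48% of all genes. Kyat1 (a kynurenine aminotransferase) was lost, 1 of 12, beside 3.22%. Adhfe1, which forms D-2-hydroxyglutarate, was in control 2 alone. Aldh4a1 and Aldh18a1, enzymes of proline metabolism, had no entry. Dicarboxylate carriers and the succinate receptor had 7 of 10 entries in all 4 (70.0%), with 0 of 7 lost and 0 of 10 gained. Sucnr1, the receptor for succinate, and Slc25a21, a mitochondrial oxodicarboxylate carrier, were among the 7. Slc25a11, the carrier that exchanges α-KG for malate, was in α-KG 1, α-KG 2 and control 2. The glutamate carrier gene Slc25a22 had no entry.

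The enzymes that use α-KG as a cosubstrate were listed by class. JmjC and TET dioxygenases had 20 of 24 entries in all 4 libraries (83.3%, beside 62.8% of all listed genes). Kdm4d is counted here under 2 IDs, both in all 4 libraries. Of these dioxygenases 0 of 20 were lost and 2 of 23 gained, Kdm5a and Tet1. Kdm4c was in control 1 alone. Jmjd4, Kdm5d, Kdm7a, Riox2 and Uty had no entry. Dioxygenases outside these families had 13 of 27 in all 4 (48.1%), with 1 of 16 lost and 2 of 17 gained. Bbox1, the last enzyme of carnitine synthesis, was lost. Fto, an RNA demethylase, and Ogfod1, a prolyl hydroxylase of a ribosomal protein, were gained. Alkbh4, Alkbh7, Ogfod2 and Ogfod3 were in α-KG 2 alone, and P3h3 was in control 2 alone. Alkbh1 and Alkbh6 had no entry. These counts are small, and the background shares of 3.22% lost and 4.48% gained apply to them as well.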

How the data were processed

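H3K27me3 was measured by chromatin immunoprecipitation and sequencing. The authors deposited 1 list per library of Ensembl gene IDs, symbols and protein domain names of genes with a peak, with no header and no count, score or position. CASAVA, BWA, MACS2 and the build rn6 appear in the submitters' processing notes, without roles or versions. How the input was used, the peak threshold and how peaks were tied to genes are not stated in the sources used here, so depth and its precision are unknown.

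Groups and replicate numbers came from the labels. Lists were read with Python 3.11.15 and numpy 2.4.6 and drawn with matplotlib 3.10.9. Entries, not symbols, were counted. Lost means listed in control 1 and control 2 and absent from α-KG 1 and α-KG 2, and gained means the reverse. List length was compared by an exact permutation test. Members, gene lists and their counts were chosen with earlier results of these data known, so no p-value is given for them. Every member is named, and from the lists those lost, gained, or in 1 or 0 libraries, up to 8 a list, with further examples chosen after their values were seen. The comparison families were chosen by symbol prefix, also then. List genes were matched by older RefSeq symbols too, and some genes of the pathway are not reported here. Enzyme location was assigned from textbook knowledge. RefSeq (GRCr8) gave names, gene order and promoters. The counting step was tested on simulated data. Alternatives left out each library, used a replicate block, joined IDs by symbol, matched older symbols, loosened the call, or scaled by list length.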

Additional observations from a re-analysis of the deposited data

How the results depend on the processing

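Of the 15 members not in every library, 12 were in α-KG 2, so that library bears most on the comparisons. Leaving out 1 library at a time, the difference in listed members ranged from -2.5 (without α-KG 2, a reversal; the cause was not tested) to 5.5 genes, lost members from 0 to 3 and gained members from 1 to 5, since fewer libraries then had to agree. Without α-KG 1, Mdh1 counted as lost (1 of 29 members, beside 1369 of 16005 genes in all). Idh3b, Sdhb, Pdhb, Acly and Gpt then counted as gained (5 of 37, beside 2290 of 19181). Without α-KG 2, Mdh2, Pc and Pck2 were lost (3 of 29, beside 1075 of 16005). Idh3g and Acly were then gained (2 of 29, beside 1184 of 18120). Without control 1, 0 of 31 were lost (beside 1025 of 18442), and Dlat and Acly were gained (2 of 27, beside 1109 of 16287). Without control 2, Sdhc was lost (1 of 32, beside 904 of 17245) and Acly gained (1 of 27, beside 1830 of 16287). Members in every remaining library numbered 25 to 28. As a share of each library's list, the difference was -0.000356 percentage points, a reversal that lies within the spread of 0.160% to 0.193%. With a looser call, 7 members (17.5%) had more α-KG than control listings and 5 (12.5%) the reverse, beside 18.8% and 12.6% of all listed genes. The replicate block gave the same 1.5 genes, from -3 in pair 1 and 6 in pair 2, and for list length the same 807 genes (exact sign-flip p = 0.5, the smallest possible). The replicate number pairs nothing in the labels, and the correlation of replicate deviations between groups, over genes, was 0.048. With 1 state per symbol or with older symbols, the counts of members listed, lost, gained, in all 4 and in α-KG 2 alone were as given. List length differed by 208.5 to 1406 genes when a library was left out and by 836.5 when genes lacking a symbol were dropped, always higher in α-KG. Without read depth, a missing listing cannot be told from a weak peak.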

Other observations

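Protein domain names in the lists grouped some members. The malic enzyme domains were in 3 listed genes, Me1, Me2 and Me3, all in all 4 libraries. The ATP-citrate lyase/succinyl-CoA ligase domain was in 4 listed genes, of which Sucla2, Suclg1 and Suclg2 were in all 4 and Acly in the α-KG libraries alone. Of 48 listed genes with the domain of pyridoxal phosphate-dependent transferases, 27 (56.2%) were in all 4, and of the 5 members among them 4 were. The biotin/lipoyl attachment domain was in 7 listed genes, of which 3 were in all 4 libraries, and in 3 members, of which 1 was. Pc, one of these members, is a biotin enzyme.

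Entries were found for 40 of the 43 member genes (93.0%), beside 76.9% of 20978 named protein-coding RefSeq genes, matched by current or older symbol. Genes whose names changed beyond these synonyms count as unlisted, which lowers the second share. The members were chosen with earlier results of these data known, so the first share is not that of an unselected set. The gap between the shares therefore does not show that these enzymes were listed more often than genes in general.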
